A study of Caenorhabditis elegans with 4 samples.

Results

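The X chromosome carried 234 of the 1137 NHR-21 peaks in the combined peak list, and these 234 intervals, chosen by chromosome alone, are described here. NHR-21 is a nuclear hormone receptor of *Caenorhabditis elegans*. Its binding was mapped by ChIP-seq (chromatin immunoprecipitation followed by sequencing) in whole hermaphrodites of larval stage L2, grown at 20 °C. Both ChIP and both Input libraries came from strain OP361, which has the unc119(ed3) mutation and the transgene wgIs361, an nhr-21 gene fused to TY1-GFP-3xFLAG with unc119 beside it as the rescuing marker, brought in by bombardment. Every library therefore shares the mutation, its rescue and the added nhr-21. The labels do not give the number of transgene copies or the insertion site. An antibody against GFP collected the tagged protein with its DNA. Peak lists were at hand for ChIP replicate 1, ChIP replicate 2 and the combined call. The 2 Input libraries were not analysed here. The free-text descriptions call the ChIP libraries input DNA and attach the antibody to the Input libraries, while titles and source names say the reverse; the titles were followed.

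Nuclear hormone receptors bind DNA through a zinc finger domain and carry a second domain that in many members binds small lipophilic ligands. The family is much larger in nematodes than in mammals. In hermaphrodites X is present in as many copies as each autosome, and a dosage compensation complex binds it and lowers its transcription. Nematode autosomes have gene-rich centres with little recombination and repeat-rich arms, a division that is less marked on X. Because whole larvae were used, a peak does not tell which cells held the protein there.

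Each interval has a q value, an adjusted p-value assigned by the authors' peak caller, and nothing else. A stronger peak here means one with a smaller q, which also depends on sequencing depth, so strength is not the level of binding. The number of reads behind each peak is unknown. X was set against III, IV and V together, which held 613 peaks (182, 240 and 191). The measures compared were 5, namely support in the replicates, strength, width, spacing and position, by two-sided Fisher's exact tests adjusted over the 5 by Benjamini-Hochberg. Those tests count neighbouring peaks as independent. Positions are on WormBase WS180, counted from 1. Genes and sequences at the peaks were not analysed here, since no annotation or genome of that build was at hand.

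Of the 5 measures, position was the one in which X differed past the threshold from III, IV and V together. Against IV alone the difference did not pass. The central 50% of X held 119 of its 234 peaks, or 50.9% (95% Wilson interval 44.5 to 57.2%), against 406 of 613, or 66.2% (62.4 to 69.9%), on III, IV and V. In the whole list the share was 63.1%. X was lower by 15.4 percentage points (-15.4, Newcombe 95% interval -22.7 to -7.97; Fisher's exact test, adjusted p = 0.000257). Taken singly, the share on III was 69.8%, that on V was 71.7% and that on IV was 59.2%. The differences from III and V passed the test (Fisher's exact test adjusted over the 3 chromosomes, p = 0.000191 and 3.53e-05). The difference from IV, -8.31 points with an interval of -17.1 to 0.637, did not (Fisher's exact test, adjusted p = 0.0793).

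Both replicate lists showed the same direction on their own. In replicate 1 the central 50% held 35 of 91 X regions, or 38.5%, against 160 of 258, or 62.0%, on III, IV and V. For replicate 2 the counts were 74 of 151 X regions, or 49.0%, against 258 of 386, or 66.8%. A run of 7 X peaks lay just outside the central 50%, at 75.5% of the length of X. Where neighbours no more than 5 kb apart were joined and counted once, the difference was -13.8 points (Fisher's exact test, adjusted p = 0.00751).

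Along X the peaks were most numerous on either side of a thin middle. In bins of 10% of the length, those from 30 to 40% and from 70 to 80% held 32 and 33 peaks. Between them, the bin from 50 to 60% held 15, or 6.41% (3.92 to 10.3%), as few as the bin from 0 to 10%. On III, IV and V together the bin from 50 to 60% was the fullest, with 102 of 613 peaks or 16.6% (13.9 to 19.8%). Taken singly, it was the fullest on III and V, with 33 and 40 peaks. On IV it held 29, fewer than the 36 from 60 to 70%. The 15 X peaks from 50 to 60% were also weak, with a median −log10 q of 5.49 against 8.20 for all X peaks. Replicate 1 found 2 of these 15 and replicate 2 found 8, against 87 and 148 of all 234 X peaks. The bins were compared after their values were seen, and no test was run on them.

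**Figure D1:**
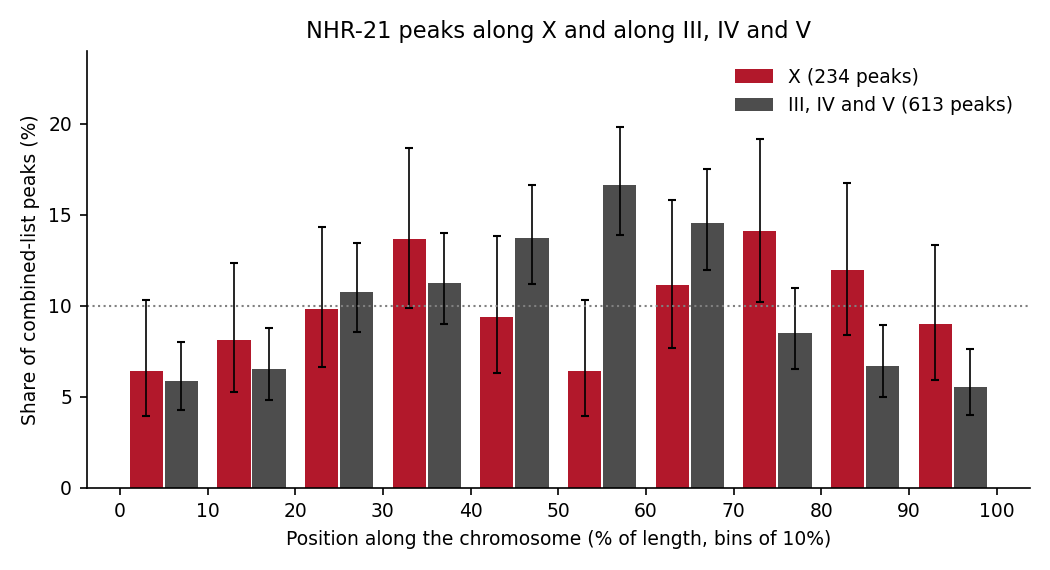
Share of combined-list peaks (vertical axis, percent) in each bin of 10% of the chromosome's length (horizontal axis, low to high coordinate) for X (red, 234 peaks) and for III, IV and V together (grey, 613 peaks), with 95% Wilson intervals; the dotted line marks an even spread of 10%. The bin from 50 to 60% held 6.41% of X peaks against 16.6% of the peaks on III, IV and V.

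Peaks in the outer parts of X had smaller q values, in the median, than those in its centre. The median −log10 q was 9.33 over the 115 outer peaks and 7.59 over the 119 central peaks. A q of at most 1e-10 was held by 56 outer peaks, or 48.7%, and by 42 central peaks, or 35.3%. On III, IV and V together these shares were 38.2% and 38.7%, and the share in the whole list was 39.2%. Replicate 1 found 54 of the outer X peaks (47.0%) and 33 of the central ones (27.7%). On III, IV and V together replicate 1 found 93 of 207 outer peaks (44.9%) and 149 of 406 central ones (36.7%). The medians there were 7.89 and 7.58. By chromosome, replicate 1 found 54.5% of outer and 39.4% of central peaks on III, and 39.8% and 28.2% on IV. On V the shares were 44.4% and 43.1%. The median −log10 q on IV was also larger in the outer parts, 8.37 against 7.08. On III and V the median was larger in the centre. Neither the contrast within X nor its difference from the other chromosomes was tested.

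**Figure D2:**
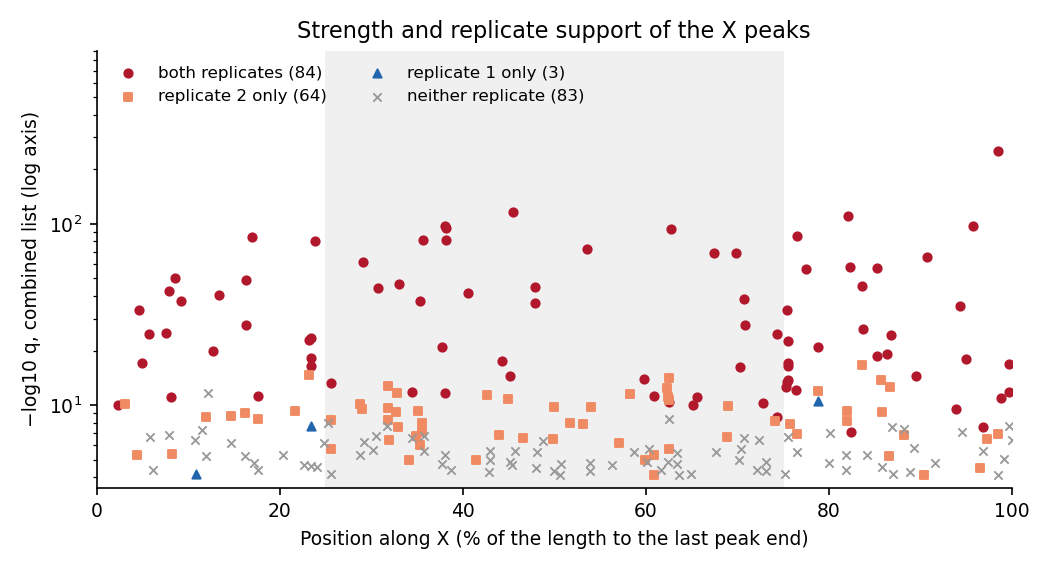
Strength of each X peak in the combined list (vertical axis, −log10 q on a log axis) by position along X (horizontal axis, percent of the length up to the last peak end), with the central 50% shaded and the marker giving the replicates in which the peak was found. The 84 peaks found in both replicates fill the upper part of the plot, and the 83 found in neither lie at a −log10 q of 11.6 or lower.

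The strongest interval of the whole combined list was X:17419437-17422408, near the high-coordinate end of X at 98.5% of its length. It had a combined q of 8.78e-253, with 2.11e-102 in replicate 1 and 5.05e-161 in replicate 2. It was 2972 bp wide and had another peak 1379 bp beyond it. The next on X was X:8035842-8036975, the 8th of the combined list, with q = 1.36e-116 there, 3.59e-68 in replicate 1 and 7.54e-81 in replicate 2. After it came X:14525311-14526572, whose combined q was 5.94e-111, with 6.57e-56 in replicate 1 and 3.02e-80 in replicate 2. These last 2 were 1134 and 1262 bp wide, with the nearest other peak 15786 and 16100 bp away.

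Of the 10 strongest X peaks, 3 lay in a stretch of 14.4 kb. They were X:6736213-6738077 (combined q = 4.58e-98), X:6740394-6744916 (1.42e-95) and X:6748905-6750573 (2.44e-82). Their q values in replicate 1 were 7.13e-29, 1.14e-38 and 1.61e-30, and in replicate 2 they were 1.69e-77, 4.16e-67 and 2.98e-53. They ranked 38th, 21st and 34th of the 409 regions of replicate 1, and 10th, 14th and 23rd of the 662 regions of replicate 2; the lists differ in length, so these ranks are not compared between replicates. The first of them was split into 2 regions in replicate 1 and was a single region in replicate 2.

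The other 4 of the 10 were X:16929289-16931944 (combined q = 5.56e-98), X:11093652-11094568 (2.98e-94), X:13541209-13545210 (3.37e-86) and X:2996289-2997468 (1.47e-85). All 10 were found in both replicates. They ranked no lower than 26th of 1137 in the combined list, 38th of 409 in replicate 1 and 26th of 662 in replicate 2, and their widths ran from 917 to 4523 bp. Of the 10, 5 had a neighbour within 5 kb, as had 41.0% of all X peaks and 41.4% of the whole list. The most isolated was X:16929289-16931944, with 131722 bp to its nearest neighbour.

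X peaks did not differ past the threshold from those of III, IV and V in the share that lay in the stronger 50% of the list. The stronger 50% of the combined list, which is 50.0% of all peaks by construction, included 123 of 234 X peaks, or 52.6% (46.2 to 58.9%), against 296 of 613, or 48.3% (44.4 to 52.2%), on III, IV and V. The difference of 4.28 points (interval -3.24 to 11.7) did not pass (Fisher's exact test, adjusted p = 0.471). It passed in the list of replicate 1 alone, whose stronger 50% included 56 of 91 X regions, or 61.5%, against 119 of 258, or 46.1%, on III, IV and V (Fisher's exact test, adjusted p = 0.0364). In that of replicate 2 it did not, with 55.0% against 47.4% (0.298). A q of at most 1e-10 was held by 98 X peaks, or 41.9%, against 236, or 38.5%, on III, IV and V and 39.2% in the whole list. The median −log10 q was 8.20 on X and 7.70 on III, IV and V.

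The strongest 25% of the list included 26.9% of X peaks against 24.1% of those on III, IV and V, and this difference of 2.78 points did not pass either (Fisher's exact test, adjusted p = 0.707). Among the 100 strongest of the list were 33 X peaks, which is 14.1% of X peaks (10.2 to 19.1%) against 45, or 7.34% (5.53 to 9.68%), on III, IV and V and 8.80% in the whole list. This difference of 6.76 points passed (Fisher's exact test, adjusted with the other 4 measures, p = 0.00834). The cuts at 50, 100 and 200 were chosen after the values were seen. At the 50 strongest the shares were 8.55% on X and 3.59% on III, IV and V (Fisher's exact test, adjusted p = 0.0111), and at the 200 strongest 20.5% and 17.1% (0.453). Against V alone, where 19 peaks or 9.95% were among the 100 strongest, the difference did not pass (Fisher's exact test, adjusted p = 0.39). In the replicates' own lists, 36 of 91 X regions against 54 of 258 on III, IV and V were among the 100 strongest of replicate 1 (Fisher's exact test, adjusted p = 0.00191). The counts were 33 of 151 and 53 of 386 in replicate 2 (0.0647).

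**Figure D3:**
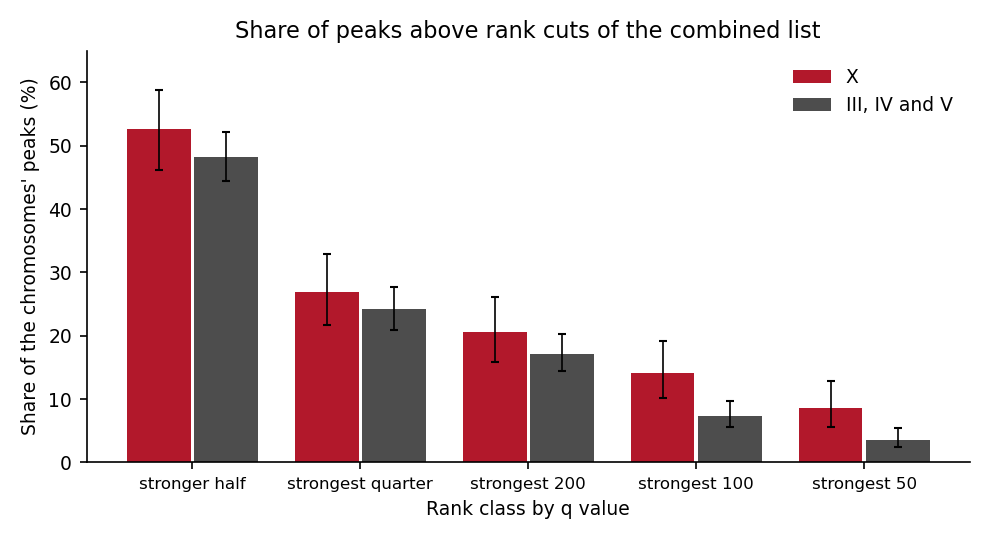
Share of the peaks of X (red) and of III, IV and V together (grey) that lie above each rank cut of the combined list (vertical axis, percent; horizontal axis, rank class by q value), with 95% Wilson intervals. The stronger 50% held 52.6% of X peaks against 48.3% of the others, and the 100 strongest held 14.1% against 7.34%.

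No difference in replicate support passed the test. At least 1 replicate contained 151 of 234 X peaks, or 64.5% (58.2 to 70.4%), against 384 of 613, or 62.6% (58.7 to 66.4%), and 57.9% of the whole list. The difference was 1.89 points (interval -5.46 to 8.92; Fisher's exact test, adjusted p = 0.792). Replicate 1 found 87 X peaks, or 37.2%, against 39.5% on III, IV and V and 34.0% in the whole list. Replicate 2 found 148, or 63.2%, against 60.2% on III, IV and V and 55.9% in the whole list. Chromosomes I and II, which lower the figures of the whole list, were not part of this comparison.

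By class, 84 X peaks or 35.9% were found in both replicates (32.1% in the whole list) and 83 or 35.5% in neither (42.1% in the whole list). Replicate 2 alone held 64, or 27.4%, against 23.2% on III, IV and V and 271 of 1137 in the whole list. Replicate 1 alone held 3, or 1.28%, against 2.45% on III, IV and V and 22 of 1137 in the whole list. The median −log10 q on X was 24.5 for peaks in both replicates, 8.20 for those in replicate 2 alone, 7.64 for the 3 in replicate 1 alone and 5.29 for those in neither. The median widths of these classes were 950, 731, 1934 and 555 bp in the same order. The 50 strongest X peaks were all found in both replicates, and of the 100 strongest on X 80 were. This was not particular to X. Of the 119 peaks on III, IV and V in the rank group with the smallest q values, replicate 1 found 118 and replicate 2 found 119.

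The combined list was also cut into 5 rank groups of about equal size, from the smallest q values (group 1) to the largest (group 5). All 54 X peaks in group 1 were found in each replicate. On III, IV and V replicate 1 found 118 of the 119 peaks in group 1 and replicate 2 found all 119. In group 2, replicate 1 found 27 of 45 X peaks, or 60.0% (45.5 to 73.0%), against 85 of 120, or 70.8% (62.2 to 78.2%), on III, IV and V. In group 3 it found 5 of 43, or 11.6% (5.07 to 24.5%), against 29 of 120, or 24.2% (17.4 to 32.6%). Replicate 1 thus found a lower share on X in both groups, but the intervals overlap and the difference was not tested. Replicate 2 found 43 of 45 and 32 of 43 X peaks in groups 2 and 3, or 95.6% and 74.4%, against 95.8% and 71.7% on III, IV and V.

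**Figure D4:**
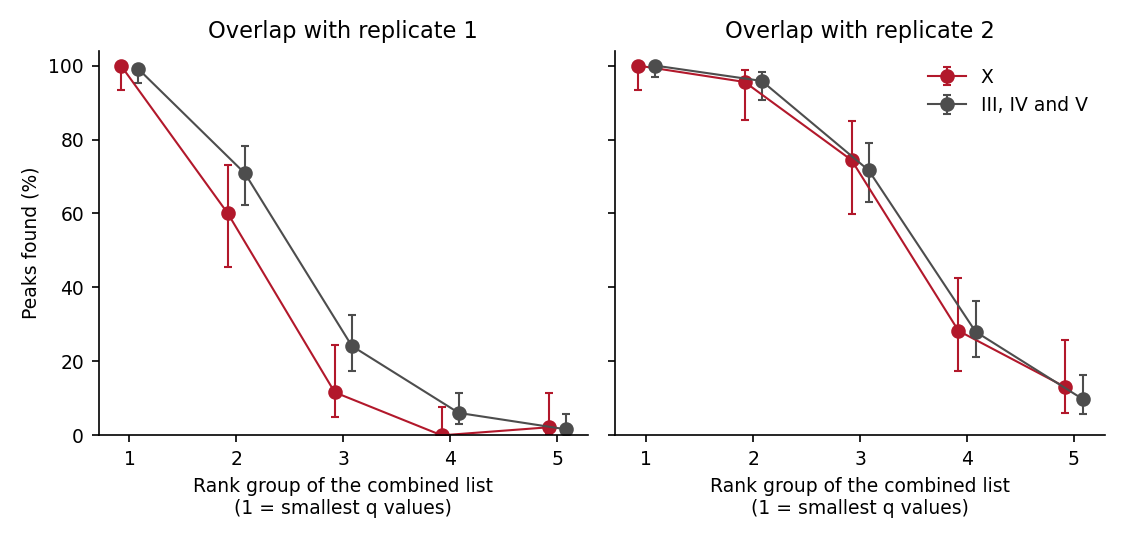
Share of combined-list peaks found in replicate 1 (left) and replicate 2 (right) by rank group of the combined list (horizontal axis, group 1 holds the smallest q values; vertical axis, percent), for X (red) and for III, IV and V (grey), with 95% Wilson intervals. In group 3 replicate 1 found 11.6% of X peaks against 24.2% of the others, and replicate 2 found 74.4% against 71.7%.

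The strongest X peak found in neither replicate was X:2144098-2145939, with a combined q of 2.35e-12 and a width of 1842 bp. The strongest found in replicate 2 alone was X:14786706-14787550, with a combined q of 1.99e-17 and a replicate 2 q of 2.45e-11. For replicate 1 alone it was X:13938784-13940717, with a combined q of 3.33e-11 and a replicate 1 q of 3.9e-05, where it ranked 399th of 409. In the other direction, almost all replicate regions on X were in the combined list. The exceptions were X:12393704-12394109 of replicate 1 (q = 4.4e-05) and X:15276531-15277423 of replicate 2 (q = 6.45e-06), 1 region in each.

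At the X peaks found in both replicates, the 2 lists placed their regions nearly alike. This closeness is partly fixed by the choice, since both regions had to overlap the same combined peak. The 84 peaks concerned are part of the 234 on X. Replicate 2 contained 87 of the 91 replicate 1 regions on X, or 95.6% (89.2 to 98.3%), while replicate 1 contained 85 of the 151 replicate 2 regions, or 56.3% (48.3 to 63.9%). These shares were 94.2% and 61.7% on III, IV and V, and 94.4% and 57.3% over all chromosomes. At the 84 X peaks found in both, the centres of the paired regions lay a median of 27 bp apart, and 66 pairs, or 78.6%, lay within 100 bp. On III, IV and V the median was 52.5 bp over 227 peaks, and 69.2% lay within 100 bp; this difference was not tested. Across the 84 X peaks the −log10 q values of the replicates had a Spearman's rho of 0.90 and a Pearson's r of 0.95, given as a description since the peaks share their libraries. The −log10 q was larger in replicate 2 at 67 of the 84 (79.8%), with a median ratio of replicate 2 to replicate 1 of 1.39 (interquartile range 1.13 to 1.72). On III, IV and V it was larger in replicate 2 at 204 of the 227 (89.9%), and the median ratio was 1.38. The difference between these shares was not tested. The labels leave unsaid if the replicates were separate cultures.

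**Figure D5:**
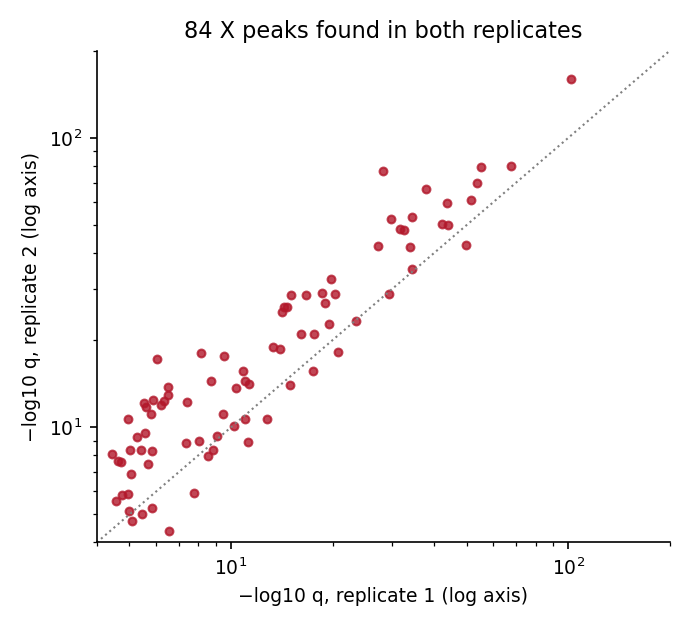
The −log10 q of replicate 2 (vertical axis) against that of replicate 1 (horizontal axis), both on log axes, at the 84 X peaks found in both replicates; each point is a peak and the dotted line marks equality. Of the points, 67 lie above the line, and the strongest peak of X stands apart at the upper right.

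The width of X peaks did not set them apart past the threshold. Their median was 765 bp (interquartile range 532.5 to 1170 bp) against 678 bp (444 to 1271 bp) on III, IV and V. More than the median width of the whole list, which 50.0% of all peaks exceed, was reached by 127 X peaks, or 54.3% (47.9 to 60.5%), against 300, or 48.9% (45.0 to 52.9%). The difference of 5.33 points (interval -2.19 to 12.7) did not pass (Fisher's exact test, adjusted p = 0.419). It was 10.5 points against IV alone (interval 1.52 to 19.3; Fisher's exact test adjusted over the 3 chromosomes, p = 0.082) and 8.88 points in the list of replicate 1 alone (Fisher's exact test, adjusted p = 0.298). The widest X peak, X:11603155-11607703, measured 4549 bp, against a maximum of 9461 bp on III, IV and V. Its combined q was 7.88e-12, with 7.97e-10 in replicate 1 and 4.63e-10 in replicate 2. The next widest were X:6740394-6744916, described above, and X:8472834-8476907 with 4074 bp and a combined q of 9.12e-46. Together the X peaks covered 238 kb, or 1.34% of the chromosome, against 1.28% of III, IV and V.

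No difference in spacing passed the test. X held 13.2 peaks per Mb, while III held 13.3, IV 13.9 and V 9.19. A neighbour within 5 kb was present for 96 X peaks, or 41.0% (34.9 to 47.4%), against 256, or 41.8% (37.9 to 45.7%), on III, IV and V and 41.4% in the whole list. The difference was -0.736 points (interval -8.01 to 6.73; Fisher's exact test, adjusted p = 0.876). The gaps between consecutive X peaks had a median of 33.2 kb (interquartile range 5.72 to 112 kb), and on III, IV and V the median was 40.5 kb. The shortest gap on X was 210 bp. Counting peaks at most 5 kb apart as a run, X held 176 runs, of which 138 were single peaks, 28 were pairs and 10 had 3 or more peaks. Single peaks made up 357 of 458 runs on III, IV and V and 666 of 853 in the whole list.

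The longest run on X was also the longest of the whole list. It held 7 peaks in 10.7 kb, from 13348265 to 13358947, with gaps of 317 to 1388 bp between them. Its strongest member, X:13349079-13351690, had a combined q of 4.96e-34, with 1.19e-15 in replicate 1 and 9.56e-15 in replicate 2. Of the 7, 6 were found in both replicates, and the exception, X:13357520-13357973, was the weakest (combined q = 2.01e-07). A caller can cut a single broad signal into several intervals, and whether that happened here was not tested.

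The widest gap on X spanned 545 kb. It lay between X:4532008-4532798 (combined q = 1.81e-06) and X:5077686-5078353 (7.65e-11), and both flanking peaks were found in replicate 2 but not in replicate 1. No gap on X reached the 1018 kb of the widest on III, IV and V. Gaps of more than 200 kb numbered 27 on X (234 peaks), 19 on III (182), 26 on IV (240) and 28 on V (191). In the whole list of 1137 peaks they numbered 137.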

How the data were processed

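Whole L2 larvae were crosslinked in 2% formaldehyde and sonicated before immunoprecipitation, per the labels' protocols. The deposited value of each interval is a q-value, per the file headers and attributes on WormBase WS180 and called by PeakSeq; it was identical as a number, with a tolerance of 0, to the q value attribute on all 1137, 409 and 1320 lines of the combined, replicate 1 and replicate 2 lists. The aligner, thresholds, control and way of combining replicates were not given in the sources used here. Replicate 2 had 302 lines on X, most of them given in duplicate; overlapping lines were merged into 151 regions, each with its smallest q. Overlap meant at least 1 shared bp. Chromosome length was taken as the largest peak end over the 3 lists (17.7 Mb for X); any sequence past it is left out. Shares have 95% Wilson intervals and their differences Newcombe intervals, both covering counting error only. Depth is unknown. Overlap, merging and tests were checked on simulated data. Peaks were named by a rule: the 10 smallest q values, the strongest peak of each incomplete support class, the 3 widest, the longest run, the widest gap and replicate regions missing from the combined list. The members, tests and rule were chosen with earlier results of these data known. Alternatives covered overlap, cuts, chromosomes compared, runs, stricter lists and each replicate left out. Python 3.11.15, numpy 2.4.6, pandas 2.3.3, SciPy 1.17.1 and matplotlib 3.10.9 were used. The gene table at hand is on another assembly, so genes and sequences at the peaks were not used here.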

Additional observations from a re-analysis of the deposited data

How the results depend on the processing

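No paired analysis was possible because every comparison is between chromosomes within a single list, with no comparison between groups of samples. All values here are X minus III, IV and V in percentage points, with Fisher's exact tests adjusted by Benjamini-Hochberg. Chosen after seeing the data were the restriction to peaks found in a replicate and the rank cuts at 50, 100 and 200. The lower central share of X kept its direction under all 11 alternatives and its side of the threshold under 10; against IV alone it was -8.31 (Fisher's exact test, adjusted p = 0.198 over the 5 measures). It ranged from -23.6 to -17.8 with 1 replicate left out. Leaving out a replicate meant using the other replicate's own list, given above, and no peaks were called anew. For support the combined list was kept, and only overlap with the remaining replicate was counted. Support, at 1.89, was -2.30 without replicate 2, a reversal, 3.05 without replicate 1 and 8.38 against all autosomes (Fisher's exact test, adjusted p = 0.0534); no alternative passed. Strength passed without replicate 2, at 15.4, and stood at 7.56 without replicate 1. At the 50 and 100 strongest it passed at 4.96 and 6.76, and for the 100 strongest it also passed against III alone (7.51), IV alone (8.27), all autosomes (6.68) and with runs counted once (7.79), as well as without replicate 2 (18.6), but not without replicate 1 (8.12). For the strongest 25% it was 2.78 and did not pass. Width, at 5.33, was 10.5 against IV alone, 8.88 without replicate 2 and 6.75 without replicate 1, and it reversed to -3.49 when the cut was the third quartile. Spacing reversed to 3.11 against III alone, 2.28 against V alone, 0.182 among peaks with q at most 1e-10, 0.0103 without replicate 1 and 3.18 for a neighbour within 2 kb; without replicate 2 it was -0.239. None of the width and spacing alternatives passed. The cause of these changes was not tested. Unknown depth limits any reading of strength and of peaks missing from a replicate.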
